A study of Mus musculus with 24 samples.

Results

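The 9 genes described here encode parts of the machinery that carries an interferon signal from the cell surface to the MHC class I genes: the receptor chains *Ifnar1* and *Ifngr1*, the kinases *Jak1* and *Jak2*, the transcription factors *Stat2*, *Irf1*, *Irf7* and *Irf9*, and *Nlrc5*. They were chosen by symbol for these roles, out of 34866 genes with reads in at least 1 line. All 9 were listed in every line, and all passed the filter on low values there. They were measured by bulk RNA-seq in 4 mouse tumour lines, each carrying a guide RNA against *B2m* (sgB2m), the gene of the MHC class I light chain, or a non-targeting guide (sgNT). The groups were MC38 (colon adenocarcinoma), LLC1 (Lewis lung carcinoma), AKR (esophageal carcinoma) and Hepa1-6 (hepatocellular carcinoma), with sgB2m and sgNT cells of each. There were 3 libraries per group and 24 in all. Cells of all groups grew in DMEM with fetal bovine serum, and no added interferon is named in the labels. The labels do not tell if the 3 libraries of a group came from separate cultures, or if clones or pools of cells were used, so p-values measure the spread between these libraries, which may be technical. The question the design addresses is how tumour cells in which *B2m* was targeted differ from their controls. Class I protein was not measured in these data.

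Interferons reach a cell through a pair of receptors. Type I interferons bind IFNAR1 with IFNAR2 and signal through the kinases JAK1 and TYK2 to a complex that holds STAT2 and IRF9 and binds the interferon-stimulated response element. Interferon gamma binds IFNGR1 with IFNGR2 and signals through JAK1 and JAK2 to genes with a gamma-activated site. IRF1 and NLRC5 are induced on the gamma side and act on class I genes, and IRF7 amplifies the type I interferon response.

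The *B2m* transcript checked the labels. Its normalised read count was 9462 ± 284 in MC38 sgB2m cells and 32418 ± 1241 in MC38 sgNT cells (mean ± SD, n = 3 each), and the sgB2m level was 0.292 of the sgNT level in MC38 cells, 0.305 of it in LLC1, 0.336 in AKR and 0.391 for Hepa1-6. The groups did not overlap in any line. Counted reads ranged from 25 to 49.7 M per library, and mitochondrial genes took 3.07% to 5.18% of them. That share moved with the guide, without overlap, in 3 lines, at 3.34% ± 0.039 in MC38 sgB2m cells against 3.16% ± 0.079 in MC38 sgNT cells, at 4.04% ± 0.0092 in AKR sgB2m cells against 3.52% ± 0.027 in AKR sgNT cells, and at 4.19% ± 0.11 in Hepa1-6 sgB2m cells against 5.10% ± 0.11 in Hepa1-6 sgNT cells (SD, n = 3 each). Hepa1-6 held all 6 hepatocyte markers looked for, summing to 11330 to 11388 RPM (reads scaled to the library's total count) in sgB2m cells and 12157 to 12364 in sgNT cells. The 6 intestinal markers summed to 1459 to 1483 RPM in Hepa1-6 sgB2m cells and 1417 to 1445 in Hepa1-6 sgNT cells, where 4 of them were at or above 1 RPM. They summed to 29.9 to 35.1 RPM in AKR sgB2m cells and 14.6 to 18.5 in AKR sgNT cells. In MC38 they summed to 2.13 to 3.81 RPM in sgB2m cells and 2.79 to 3.53 in sgNT cells, with *Lgals4* at or above 1 RPM and *Cdx2*, *Cdh17* and *Krt20* absent. Of 6 alveolar markers, LLC1 held *Napsa* and *Abca3* at or above 1 RPM, had *Sftpb* and *Sftpc* below it and lacked *Nkx2-1* and *Sftpa1*. *Abca3* does not mark LLC1, as its mean in sgNT cells was 48.7 RPM there, 62.6 in AKR, 120.9 in Hepa1-6 and 24.2 in MC38. Of 6 squamous markers, AKR held *Krt13* and *Sox2* at or above 1 RPM, had *Krt14*, *Trp63* and *Dsg3* below it and lacked *Krt5*. The summed list does not mark AKR, at 61.5 to 67.1 RPM in MC38 sgNT cells and 19.51 to 20.01 RPM in AKR sgNT cells. In MC38 sgNT cells the mean of *Krt14* was 55.2 RPM. *Krt13* and *Sox2* were higher in AKR sgNT cells (means 6.46 and 12.89 RPM) than in MC38 sgNT cells (1.68 and 6.81). The 8 leukocyte markers summed to at most 5.84 RPM in any library, and *Cd3e*, *Cd3g* and *Ncr1* were absent in every line. The part of the mitochondrial share and of these markers in the results below was not tested. In bulk samples, fewer cells that express a gene and less RNA per cell cannot be told apart.

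Values per library are normalised read counts, that is reads divided by a size factor set within the line. A gene was said to have risen or fallen in sgB2m cells where limma's moderated test on the log2 scale gave a Benjamini-Hochberg adjusted p under 0.05 over all genes tested in that line, and changes are given as log2 fold changes ± SE of sgB2m over sgNT. By this measure 6 of the 9 genes rose and 0 fell in MC38, 5 rose and 1 fell in LLC1, 3 rose and 3 fell in AKR, and Hepa1-6 had 5 that rose and 3 that fell. Many other genes changed too. Of all genes tested, 31.8% changed in MC38 (15.9% rose and 15.8% fell), 42.4% in LLC1 (20.7% rose and 21.8% fell), 42.9% in AKR (21% rose and 21.9% fell) and 37.8% in Hepa1-6 (18.6% rose and 19.2% fell). The sgB2m and sgNT libraries of the line did not overlap for 8 of the 9 genes in MC38 (45% of all genes tested), 6 in LLC1 (51.8% of all), 6 in AKR (52.5%) and 7 in Hepa1-6 (47.6%). The 9 genes had a median log2 fold change of 0.092 in AKR, 0.20 in MC38, and 0.21 in both LLC1 and Hepa1-6, and that of all genes tested was between −0.0093 and 0.0092. Of the 26 changes called among the 36 values, 20 held under every alternative processing and 6 were lost under at least 1, and those 6 are named below.

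**Figure D1:**
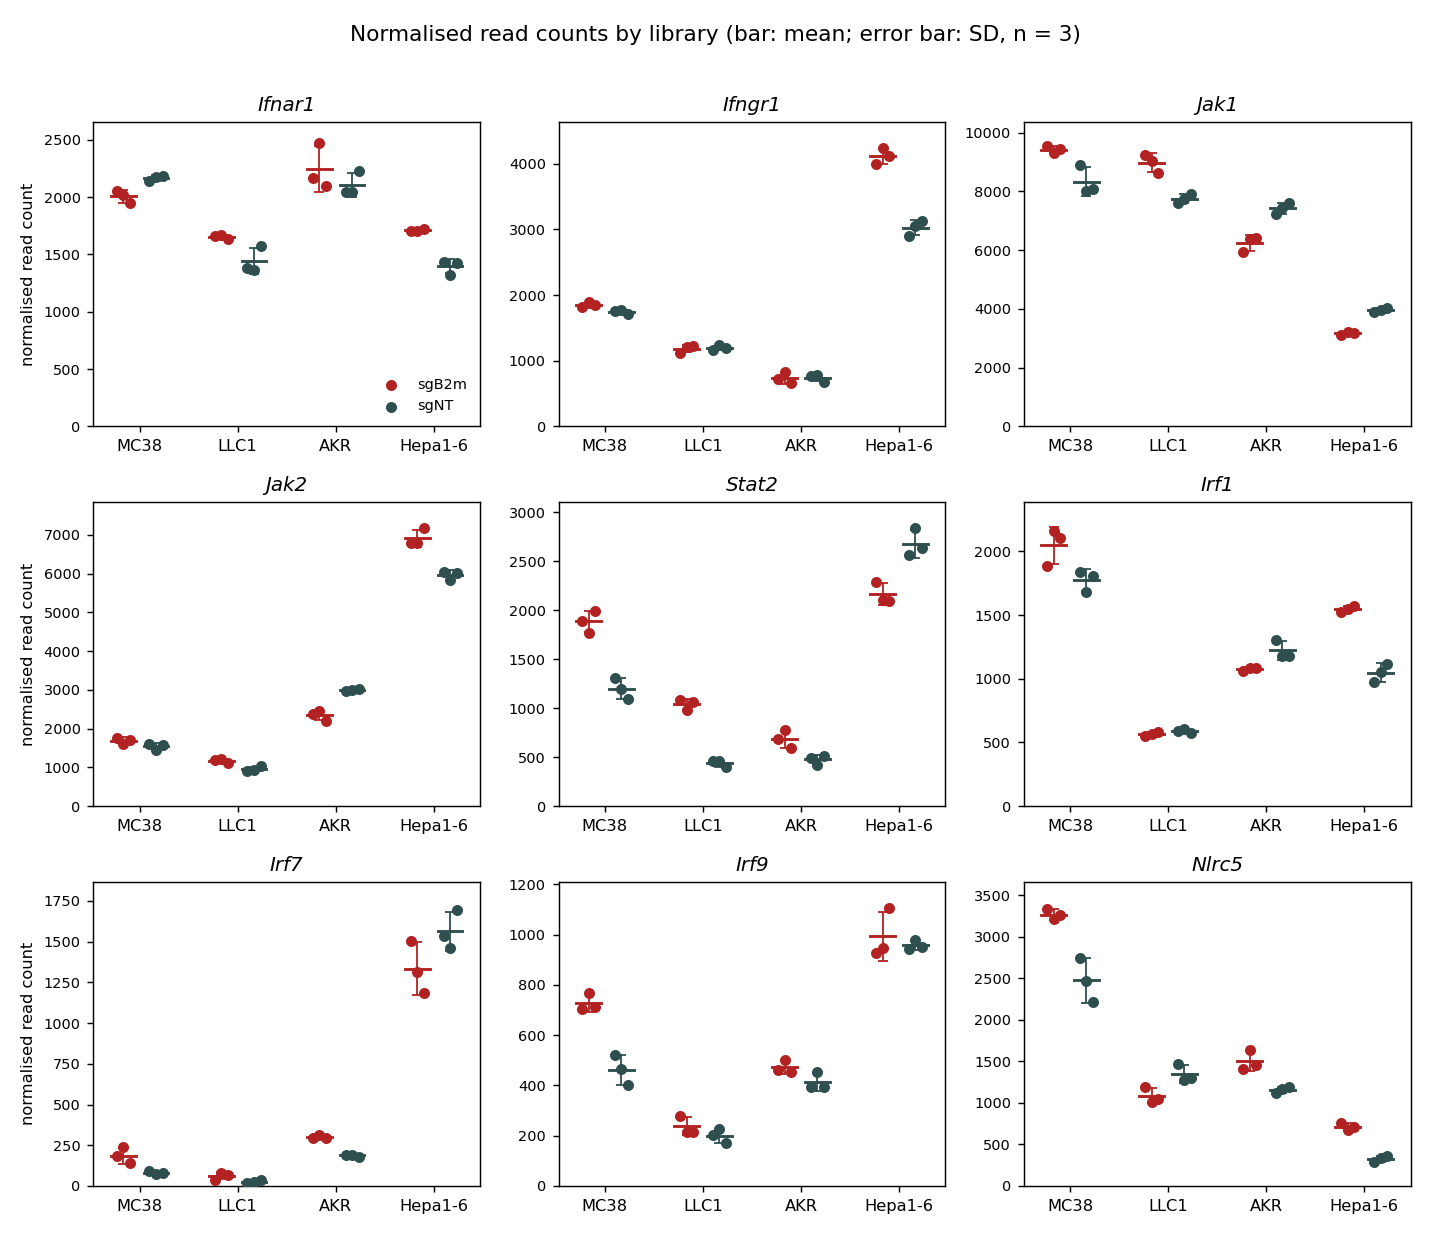
Normalised read count (y axis, from 0) of each of the 9 genes in the 24 libraries, by line (x axis), with sgB2m libraries in red to the left of sgNT libraries in dark grey. Points are libraries, horizontal bars are means and error bars are SD (n = 3). *Stat2* and *Irf7* were higher in sgB2m cells of MC38, LLC1 and AKR and lower in Hepa1-6, while *Nlrc5* was lower in sgB2m cells of LLC1 and higher in the other lines.

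*Ifnar1* (ENSMUSG00000022967, chr16:91485238-91507441, plus strand, mm10) encodes a chain of the type I interferon receptor. It rose in sgB2m cells of LLC1 and Hepa1-6 and did not pass in MC38 or AKR. The normalised counts were 1703, 1707 and 1722 in Hepa1-6 sgB2m cells and 1432, 1324 and 1429 in Hepa1-6 sgNT cells. These groups did not overlap, and the change was 0.29 ± 0.055 (limma adjusted p = 0.000494, n = 3 each). In LLC1 they were 1657, 1670.0 and 1639 in sgB2m cells and 1384, 1364 and 1570.1 in sgNT cells, again without overlap, with the third sgNT library closest to the sgB2m libraries. The LLC1 change was 0.20 ± 0.059 (limma adjusted p = 0.0117), and the call was lost under 4 of 15 alternatives, among them without sgNT replicate 1 (0.0501) or sgNT replicate 2 (0.0589). In MC38 the change was −0.11 ± 0.053 with a 95% interval of −0.23 to 0.0078, and in AKR it was 0.092 ± 0.068 with an interval of −0.058 to 0.24. The MC38 value differed from that of Hepa1-6 (difference −0.41 ± 0.082, adjusted p = 0.000332) and of LLC1 (difference −0.32 ± 0.082, adjusted p = 0.0034) in limma's test of the difference between lines, adjusted over all genes and pairs of lines.

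*Ifngr1* (ENSMUSG00000020009, chr10:19591949-19610229, plus strand), the ligand-binding chain of the interferon-gamma receptor, rose in Hepa1-6 and did not pass in the other 3 lines. Its normalised counts were 3991, 4237 and 4112 in Hepa1-6 sgB2m cells and 2897, 3049 and 3122 in Hepa1-6 sgNT cells. All 3 sgB2m libraries stood above all 3 sgNT libraries, and the change was 0.44 ± 0.042 (limma adjusted p = 5.91e-07). In the other lines it ranged from 1811 to 1894 in sgB2m cells and 1707 to 1775 in sgNT cells of MC38, to 653 to 821 in sgB2m cells and 679.9 to 774 in sgNT cells of AKR. Their changes lay near 0, with 95% intervals of −0.042 to 0.21 in MC38, −0.14 to 0.11 in LLC1 and −0.23 to 0.18 in AKR. The Hepa1-6 change exceeded that of every other line: the value of MC38 minus Hepa1-6 was −0.36 ± 0.092, of LLC1 minus Hepa1-6 −0.46 ± 0.092 and of AKR minus Hepa1-6 −0.47 ± 0.092 (limma adjusted p = 0.00285, 0.00028 and 0.000232).

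The partner chains and the remaining kinase were looked up from a list of 6 other receptor and kinase genes. *Ifngr2*, the second chain of the interferon-gamma receptor, rose in AKR (0.76 ± 0.070, limma adjusted p = 1.04e-05) and Hepa1-6 (0.60 ± 0.086, adjusted p = 4.63e-05), with 1040.3 ± 54.7 normalised reads in sgB2m cells and 612 ± 25.5 in sgNT cells in AKR. Its rise in MC38 (0.24 ± 0.079, adjusted p = 0.0406) was lost under 9 of 15 alternatives, among them without sgB2m replicate 1 (0.0521), 2 (0.127) or 3 (0.116) or sgNT replicate 1 (0.0778) or 2 (0.119). *Tyk2*, the kinase bound to IFNAR1, rose in LLC1 (0.33 ± 0.058), AKR (0.31 ± 0.056) and Hepa1-6 (0.36 ± 0.12) and fell in MC38 (−0.43 ± 0.080), with limma adjusted p of 0.000341, 0.00104, 0.0306 and 0.00268, and the Hepa1-6 call was lost under 4 of 15 alternatives, among them without sgB2m replicate 1 (0.127) or sgNT replicate 2 (0.155). *Ifnar2* rose in Hepa1-6 (0.43 ± 0.088, limma adjusted p = 0.00121). Of this list, 2 of 4 tested genes rose and 1 fell in MC38, 1 of 4 rose in LLC1, 2 of 5 rose in AKR and 4 of 5 rose in Hepa1-6, with 0 falling in the last 3 lines. Altogether 3 of 4 changed in MC38 (31.8% of all genes tested), 1 of 4 in LLC1 (42.4% of all), 2 of 5 in AKR (42.9%) and 4 of 5 in Hepa1-6 (37.8%), so the AKR share was near that of all genes. The list's median log2 fold change was highest in Hepa1-6 (0.36), followed by MC38 (0.20), AKR (0.15) and LLC1 (0.098). The MC38 count of 2 was 1 without any of sgB2m replicates 1, 2 and 3 or sgNT replicates 1 and 2.

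*Jak1* (ENSMUSG00000028530, chr4:101152367-101265282, minus strand), the kinase shared by both receptors, rose in 2 lines and fell in 2. Its normalised counts were 9255, 9045 and 8637 in LLC1 sgB2m cells and 7605, 7725 and 7926 in LLC1 sgNT cells, and the change was 0.21 ± 0.033 (limma adjusted p = 0.000133). In Hepa1-6 the order was the opposite, with 3111, 3213 and 3169 in sgB2m cells against 3879, 3945 and 4021 in sgNT cells and a change of −0.32 ± 0.038 (adjusted p = 7e-06). AKR sgB2m cells had 5944, 6395 and 6415 against 7247, 7423 and 7615 in AKR sgNT cells, and the change was −0.25 ± 0.044 (limma adjusted p = 0.000904). The groups did not overlap in any of the 4 lines. The rise in MC38 (0.18 ± 0.048, adjusted p = 0.0182) was lost under 4 of 15 alternatives, namely without the intensity trend (0.0984) and without sgB2m replicate 1 (0.0733), sgB2m replicate 3 (0.0615) or sgNT replicate 2 (0.082). MC38 and LLC1 each differed from AKR and from Hepa1-6 by 0.43 to 0.53 on the log2 scale, with limma adjusted p between 5.23e-08 and 1.25e-06. The changes in MC38 and LLC1 differed by −0.033 ± 0.055 (adjusted p = 0.676) and those in AKR and Hepa1-6 by 0.070 ± 0.055 (adjusted p = 0.335), which did not pass.

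*Jak2* (ENSMUSG00000024789, chr19:29251828-29313080, plus strand), the kinase of the IFNGR2 chain, fell in AKR and rose in LLC1 and Hepa1-6. The AKR counts were 2390.0, 2465 and 2209.7 in sgB2m cells and 2975, 3005 and 3016 in sgNT cells, a change of −0.35 ± 0.051 (limma adjusted p = 0.000278). All 3 AKR sgB2m libraries lay below all sgNT libraries, which were within a narrow band. LLC1 had 1202, 1215 and 1108 in sgB2m cells and 914, 925 and 1032 in sgNT cells (0.30 ± 0.067, adjusted p = 0.00232), and Hepa1-6 had 6781, 6796 and 7169 in sgB2m cells and 6052, 5828 and 6014 in sgNT cells (0.21 ± 0.033, adjusted p = 0.00011). Neither pair of groups overlapped. In MC38 the groups did overlap, and the change of 0.13 ± 0.068 did not pass (limma adjusted p = 0.17). The AKR change differed from each of the other 3 lines by 0.48 to 0.65 on the log2 scale, with adjusted p between 4.53e-07 and 2.38e-05.

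*Stat2* (ENSMUSG00000040033, chr10:128270559-128292849, plus strand), the STAT that carries the type I signal, had the largest rise of the 9 genes in LLC1 and rose in 3 of the 4 lines. Its upstream sequence is shown because, of the 8 genes with a window (all but *Nlrc5*), it alone held a match to the element that the complex of STAT2 and IRF9 binds. The window of 250 bases before to 50 after the RefSeq start (GRCm38.p6) held the core of the interferon-stimulated response element, taken as GAAA, any 2 bases, then GAAA on either strand, at 222 bases before the start. The 68 bases at chr10:128270248-128270315, plus strand, are printed 5′ to 3′ with the match, which reads on the minus strand, in capitals.
Stat2 upstream: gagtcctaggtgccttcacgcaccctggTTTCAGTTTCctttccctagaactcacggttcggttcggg
Of 32851 such windows of mouse genes, 3.44% held this core, and it was found in 1 of the 10 windows of these 8 genes. A match is a description of letters, not evidence of binding.

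The normalised counts of *Stat2* were 1082, 977 and 1066 in LLC1 sgB2m cells and 460.2, 462 and 395 in LLC1 sgNT cells. All 3 sgB2m libraries stood far above the sgNT libraries. The change was 1.25 ± 0.082 (limma adjusted p = 2.57e-08), or 2.37-fold between the means. MC38 had 1896, 1773 and 1991 in sgB2m cells and 1307, 1196 and 1092 in sgNT cells (0.66 ± 0.080, adjusted p = 0.000224), and AKR had 686, 774 and 595 in sgB2m cells and 490.3, 425 and 514 in sgNT cells (0.52 ± 0.11, adjusted p = 0.00279). The groups did not overlap in either line. Hepa1-6 went the other way, at 2294, 2109.7 and 2095 in sgB2m cells and 2564, 2839 and 2637 in sgNT cells, again with no overlap (−0.31 ± 0.053, limma adjusted p = 0.000258). Between lines, 5 of the 6 pairs differed. The sixth was MC38 and AKR (difference 0.14 ± 0.13, adjusted p = 0.421), and the widest gap was LLC1 minus Hepa1-6 (difference 1.55 ± 0.13, adjusted p = 1.46e-09).

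*Irf9* (ENSMUSG00000002325, chr14:55603571-55610030, plus strand), the DNA-binding partner of STAT2, rose in MC38 alone. The counts were 704, 769 and 712 in MC38 sgB2m cells against 520.1, 464 and 400.1 in MC38 sgNT cells, with no overlap, and the change was 0.66 ± 0.11 (limma adjusted p = 0.00137). The groups overlapped in LLC1, at 216 to 279.5 in sgB2m cells and 170.3 to 226 in sgNT cells. They also did in AKR, at 453 to 502 in sgB2m cells and 392 to 454 in sgNT cells, and in Hepa1-6, at 927 to 1107 in sgB2m cells and 943 to 978 in sgNT cells. The 95% intervals of these 3 changes were −0.066 to 0.56, −0.0095 to 0.39 and −0.11 to 0.21. The MC38 change was larger than that in LLC1 (difference 0.42 ± 0.16, adjusted p = 0.0446), AKR (difference 0.47 ± 0.16, adjusted p = 0.0241) and Hepa1-6 (difference 0.62 ± 0.16, adjusted p = 0.00416). *Irf9* shares 123 exon bases with *Rnf31* on the same strand in GENCODE M21, so the assignment of reads from that stretch is uncertain.

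*Irf7* (ENSMUSG00000025498, chr7:141262706-141266481, minus strand), which drives interferon genes after a first signal, was the gene among the 9 with the widest spread of levels between lines and rose in MC38, LLC1 and AKR. Its counts were 182, 237 and 139 in MC38 sgB2m cells and 90.2, 73.6 and 82.6 in MC38 sgNT cells. In AKR they were 294, 313 and 295 in AKR sgB2m cells and 191, 191 and 180.1 in AKR sgNT cells. Neither pair of groups overlapped. The changes were 1.14 ± 0.22 in MC38 (limma adjusted p = 0.00322) and 0.68 ± 0.10 in AKR (adjusted p = 0.000337). LLC1 libraries held few reads of this gene, 192 over the 3 sgB2m libraries and 78 over the 3 sgNT libraries. Their counts of 39.7, 81.7 and 66.0 in sgB2m cells and 20.3, 25.7 and 33.6 in sgNT cells did not overlap, but the sgB2m libraries ranged widely, and the change of 1.17 ± 0.32 (limma adjusted p = 0.00808) had an adjusted p of 0.0524 without sgB2m replicate 2. In Hepa1-6 the counts were 1506, 1314 and 1184 in sgB2m cells and 1537, 1459 and 1696 in sgNT cells. These groups overlapped, and the change of −0.23 ± 0.081 (adjusted p = 0.0333) was lost under 5 of 15 alternatives, including without sgB2m replicate 2 (0.071), sgB2m replicate 3 (0.159) or sgNT replicate 3 (0.149). MC38, LLC1 and AKR each differed from Hepa1-6 by 0.91 to 1.4 on the log2 scale (limma adjusted p between 0.000529 and 0.0162), and none of the pairs among MC38, LLC1 and AKR passed. *Irf7* and *Stat2* thus had the same signs in each line. The *Irf7* window held neither the core printed for *Stat2* nor the gamma-activated site described below for *Irf1*. The gene shares 45 exon bases with *Phrf1* on the other strand.

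*Irf1* (ENSMUSG00000018899, chr11:53770014-53778374, plus strand), a factor induced by interferon gamma that acts on class I and immunoproteasome genes, had its largest change, a rise, in Hepa1-6. Its window held a gamma-activated site, spelled TTCNNNGAA and searched on both strands, at 90 bases before the RefSeq start, and this element is the textbook route from interferon gamma to *Irf1*. The 69 bases at chr11:53769894-53769962, plus strand, are shown with the match in capitals.
Irf1 upstream: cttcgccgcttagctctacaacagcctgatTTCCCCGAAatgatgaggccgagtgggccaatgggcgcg
Of all windows, 8.3% held this motif, as did 2 of the 10 windows here, the other being that of *Ifnar1*, where the match lies across the start.

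In Hepa1-6 the normalised counts of *Irf1* were 1524, 1543 and 1572 in sgB2m cells and 976, 1050.2 and 1119 in sgNT cells. The groups were far apart, and the change was 0.56 ± 0.063 (limma adjusted p = 3.90e-06). MC38 had 1882, 2157 and 2102 in sgB2m cells and 1837, 1680.2 and 1809 in sgNT cells, a change of 0.20 ± 0.070 whose adjusted p of 0.0481 lay close to the threshold. AKR had 1058, 1085 and 1087 in sgB2m cells and 1306, 1180.2 and 1179 in sgNT cells, a change of −0.18 ± 0.062 (limma adjusted p = 0.0362). These 2 calls were the least stable of the 26. The MC38 call was lost under 9 of 15 alternatives, with adjusted p between 0.0629 and 0.164, among them without sgB2m replicate 2 or 3 or sgNT replicate 2 or 3. The AKR call was lost under 10 of 15 alternatives, with adjusted p between 0.0502 and 0.149, among them without any one of the libraries other than sgNT replicate 3. In LLC1 the change was −0.055 ± 0.074, with overlapping groups and a 95% interval of −0.21 to 0.10. The Hepa1-6 change differed from that in AKR (difference −0.74 ± 0.086, adjusted p = 2.72e-07), LLC1 (difference −0.62 ± 0.086, adjusted p = 3.76e-06) and MC38 (difference −0.36 ± 0.086, adjusted p = 0.00173), by limma. *Irf1* shares 135 exon bases with *Gm17334* on the other strand, and whether the counting used the strand is not given in the sources used here.

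*Nlrc5* (ENSMUSG00000074151, chr8:94434356-94527272, plus strand), the transactivator of MHC class I genes, rose in Hepa1-6, MC38 and AKR and fell in LLC1. The Hepa1-6 counts were 755, 674 and 714 in sgB2m cells and 286, 332 and 364 in sgNT cells. The lowest sgB2m library was well above the highest sgNT library, and the change was 1.13 ± 0.10 (limma adjusted p = 4.82e-07), or 2.18-fold between the means. MC38 had 3339.6, 3212 and 3260.2 in sgB2m cells and 2749, 2465 and 2214 in sgNT cells (0.41 ± 0.075, adjusted p = 0.00252). AKR had 1408, 1635 and 1459 in sgB2m cells and 1121, 1172 and 1187 in sgNT cells (0.37 ± 0.067, limma adjusted p = 0.00113). Neither pair overlapped. In LLC1 the sgB2m libraries, at 1193, 1017 and 1052, lay below the sgNT libraries, at 1470.1, 1281 and 1299, and the change was −0.31 ± 0.073 (adjusted p = 0.00298). All 4 calls held under each of the 15 alternatives. Of the 6 pairs of lines, 5 differed. The gap of LLC1 minus Hepa1-6 was −1.44 ± 0.12 (limma adjusted p = 2.30e-09), and MC38 and AKR differed by 0.038 ± 0.12 (adjusted p = 0.834), which did not pass. The gene shares 78 exon bases with the non-coding 9330175E14Rik on the other strand.

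**Figure D2:**
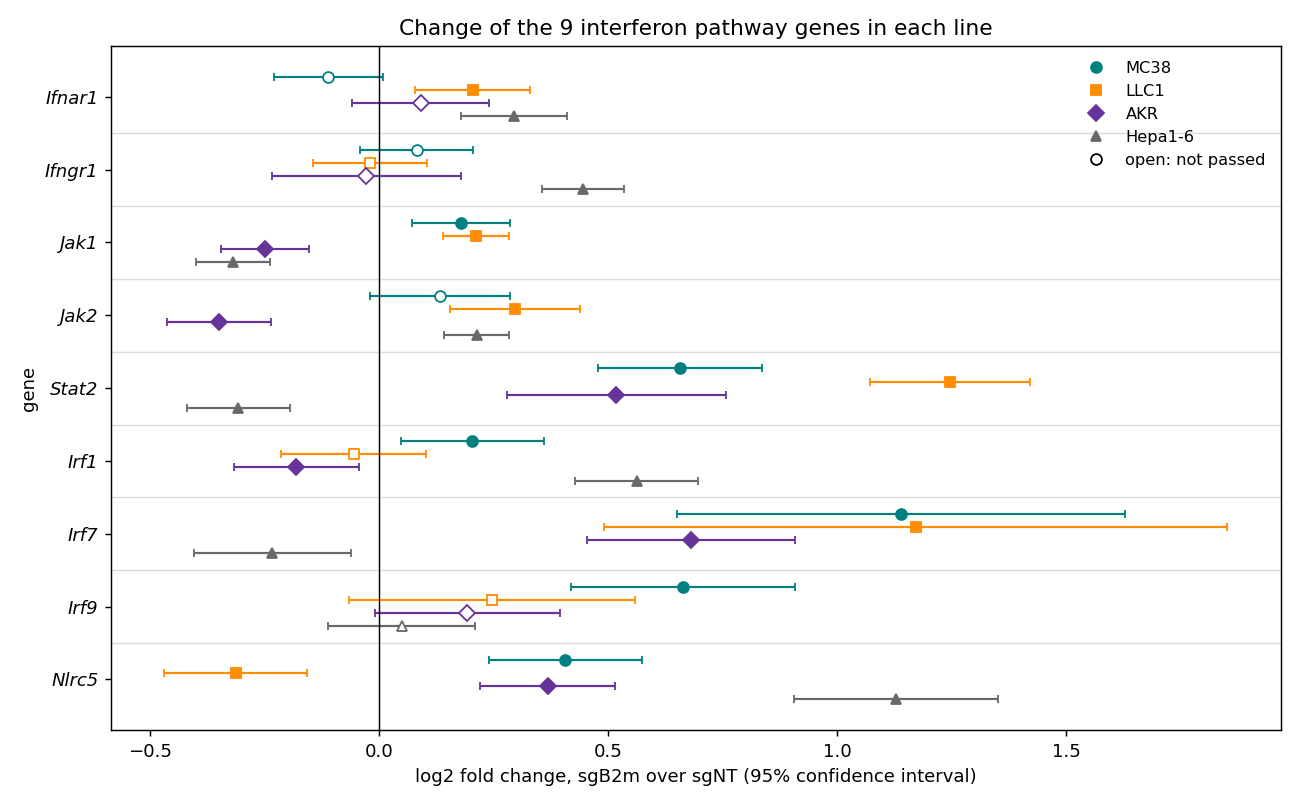
Log2 fold change of sgB2m over sgNT (x axis) of the 9 genes (rows) in MC38 (circles), LLC1 (squares), AKR (diamonds) and Hepa1-6 (triangles), with 95% confidence intervals from limma as bars; filled symbols passed the test and open ones did not. *Stat2* ran from −0.31 in Hepa1-6 to 1.25 in LLC1 and *Nlrc5* from −0.31 in LLC1 to 1.13 in Hepa1-6.

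The change differed between lines for each of the 9 genes in limma's F test of the interaction of line and guide over all 24 libraries, but so did that of 69.8% of the 12674 genes tested in all 4 lines. The adjusted p ran from 4.56e-09 for *Jak1* to 0.0122 for *Irf9*. Of 54 comparisons of a gene between a pair of lines, 33 passed, against 42% of such comparisons over all genes. MC38 and Hepa1-6 differed for 8 of the 9 genes, AKR and Hepa1-6 for 6, LLC1 and Hepa1-6 for 6, MC38 and LLC1 for 5, LLC1 and AKR for 4, and MC38 and AKR for 4. *Irf1*, *Stat2* and *Nlrc5* each differed in 5 of 6 pairs, and *Ifnar1* in 2. Of the 9 genes, 6 rose in at least 1 line and fell in another, and 3 rose in 3 lines: *Stat2*, *Irf7* and *Nlrc5*. The share of all genes with such patterns was not counted, so these counts do not set the 9 genes apart. The only falls of *Irf1* (in AKR) and *Irf7* (in Hepa1-6) were lost under 10 and 5 of 15 alternatives. After each gene was centred on the mean of its line, Pearson's r over the 24 libraries was 0.84 between *Ifngr1* and *Irf1*, 0.79 between *Irf7* and *Stat2*, 0.77 between *Ifngr1* and *Nlrc5*, 0.76 between *Irf1* and *Nlrc5*, and −0.60 between *Jak1* and *Nlrc5*. These r describe points that share a line and a guide, so they carry the changes given above. Among all 12674 genes the closest to *Nlrc5* by the same r was *Lif* (0.96), the closest to *Stat2* was *Lasp1* (0.95), to *Irf1* *Irf2bpl* (0.92), to *Irf7* *Gstm2* (0.88), to *Irf9* *Eif4enif1* (0.86), to *Jak1* *Aplp2* (0.94), to *Jak2* *Pnrc2* (0.93), to *Ifngr1* *Klf6* (0.86) and to *Ifnar1* *Map4k2* (0.87).

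Levels in the control cells were compared between lines in RPM, because the deposited tables were normalised separately for each line. No test was made between lines, and levels were read by whether the 3 sgNT libraries of neighbouring lines overlapped. *Irf7* spread the most, with 54.9 ± 3.93 RPM in Hepa1-6, 5.95 ± 0.233 in AKR, 2.30 ± 0.219 in MC38 and 0.963 ± 0.245 in LLC1 (SD, n = 3 each), a 57.1-fold range with no overlap between neighbours. *Stat2* had 94.1 ± 5.14 in Hepa1-6, 33.6 ± 2.96 in MC38, 15.9 ± 1.33 in LLC1 and 15.2 ± 1.46 in AKR, where the last 2 lines overlapped. Hepa1-6 was thus the line with the highest control levels of *Irf7* and *Stat2* and the line in which both fell in sgB2m cells. The *Irf7* fall was lost under 5 of 15 alternatives. Control levels of *Jak2*, *Ifngr1* and *Irf9* were also highest in Hepa1-6, where *Jak2* and *Ifngr1* rose and *Irf9* did not pass. A link between control level and change was not tested.

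The order of *Nlrc5* in control cells put Hepa1-6 last, with 69.5 ± 7.36 RPM in MC38 cells, 48.9 ± 3.88 RPM in LLC1, 36.9 ± 0.811 in AKR and 11.5 ± 1.33 RPM in Hepa1-6, a 6.04-fold range with no overlap. In sgB2m cells the *Nlrc5* levels were closer together, a 3.55-fold range. *Jak2* ran from 209.5 ± 4.12 in Hepa1-6 through 95.3 ± 0.132 in AKR and 43.3 ± 2.25 in MC38 to 34.7 ± 2.47 in LLC1, with no overlap. *Irf9* (33.6 ± 0.728) and *Ifngr1* (102 to 109 RPM in its 3 libraries) were also highest in Hepa1-6. The lowest line was LLC1 for *Irf9* (7.24 ± 0.987) and AKR for *Ifngr1* (23.6 ± 1.85). The neighbours AKR and MC38 overlapped for *Irf9*. *Irf1* was highest in MC38 (49.8 ± 2.01) and lowest in LLC1 (21.3 ± 0.517), with AKR and Hepa1-6 overlapping between them. *Jak1* was highest in LLC1 (281 ± 6.51) and lowest in Hepa1-6 (139 ± 1.73), with AKR and MC38 overlapping. *Ifnar1* varied least, a 1.36-fold range between AKR (66.9 ± 2.98) and Hepa1-6 (49.0 ± 2.07), and LLC1 and Hepa1-6 overlapped. Per kilobase of exon (RPKM), *Jak1* was the highest of the 9 genes in sgNT cells of LLC1 (38.9 RPKM), AKR (32.7) and MC38 (32.3), while *Jak2* was the highest in Hepa1-6 (41.7). The lowest was *Irf7* in LLC1 (0.255), MC38 (0.610) and AKR (1.58), and *Nlrc5* in Hepa1-6 (1.35).

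**Figure D3:**
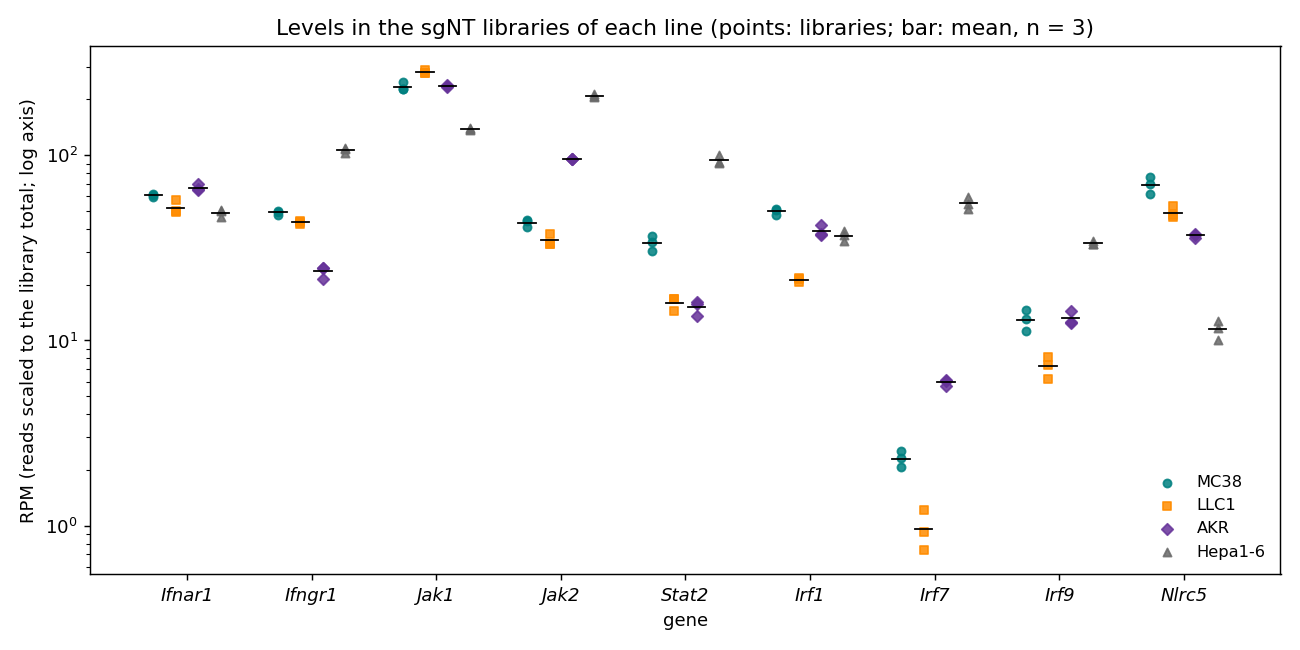
RPM (y axis, log scale) of the 9 genes (x axis) in the sgNT libraries of MC38 (circles), LLC1 (squares), AKR (diamonds) and Hepa1-6 (triangles). Points are libraries and black bars are means (n = 3). *Irf7* spanned 57.1-fold between Hepa1-6 and LLC1, and *Ifnar1* 1.36-fold between AKR and Hepa1-6.

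The other genes of the pathway were taken from lists by role. Of 11 interferon genes themselves, none reached the level needed for a test in any line, and 7 had at least 1 read. The most reads in a group were 12, of *Ifne* in LLC1 sgB2m cells summed over 3 libraries. Among 12 other STAT and IRF genes, *Stat3*, which carries signals of the interleukin-6 family, rose in MC38 (0.85 ± 0.052, limma adjusted p = 2.54e-06) and LLC1 (0.20 ± 0.052, 0.00538), the LLC1 call being lost without the intensity trend (0.0624). Its fall in AKR (−0.15 ± 0.044, limma adjusted p = 0.0196) was lost under 7 of 15 alternatives, among them without sgB2m replicate 3 (0.0595) or sgNT replicate 1 (0.0684) or 3 (0.0753). *Irf8*, a factor of myeloid cells, rose in Hepa1-6 (725 ± 55.6 normalised reads in sgB2m cells against 361 ± 29.6 in sgNT cells, limma adjusted p = 7.67e-07) and AKR (0.50 ± 0.074, 0.000299). It fell in LLC1, where it was weak, with 11 reads over the 3 sgB2m libraries and 76 over the 3 sgNT libraries (limma adjusted p = 0.00449). There *Irf8* passed the filter only through its sgNT libraries, so a fall was the only call open to it. No conclusion is drawn from that call. Of this list 3 of 10 tested genes rose and 1 fell in MC38, 4 of 9 rose and 1 fell in LLC1, 4 of 10 rose and 3 fell in AKR, and 4 of 9 rose and 1 fell in Hepa1-6, and its median change was −0.053 for MC38, 0.058 for LLC1, 0.13 for AKR and 0.085 for Hepa1-6. Altogether 4 of 10 changed in MC38 (31.8% of all genes tested), 5 of 9 in LLC1 (42.4% of all), 7 of 10 in AKR (42.9%) and 5 of 9 in Hepa1-6 (37.8%). The number that fell rested on single libraries in MC38, at 0 without sgB2m replicate 1 and 2 without sgNT replicate 1. In AKR it was 1 without sgB2m replicate 3 or sgNT replicate 3. In LLC1 it was 0 without any one sgNT library, because *Irf8* then no longer passed the filter and was not tested.

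Inhibitors of the pathway made a list of 15 genes: SOCS proteins and phosphatases, which restrain receptors and their kinases, the nuclear PIAS proteins, the co-repressors *Irf2bp1* and *Irf2bp2*, and others. *Ptpn2*, a phosphatase that acts on JAK1, fell in MC38 (−0.69 ± 0.065, limma adjusted p = 4.25e-05), LLC1 (−0.45 ± 0.062, 3.55e-05) and AKR (−0.32 ± 0.049, 0.000409) and rose in Hepa1-6 (0.21 ± 0.045, 0.00148). Its signs were opposite to those of *Stat2* and *Irf7* in every line. *Socs2*, an inhibitor best known from growth hormone signalling, fell in MC38 (−1.23 ± 0.14) and LLC1 (−1.04 ± 0.22), with limma adjusted p of 0.00016 and 0.00174. It also fell in AKR (−0.27 ± 0.077, limma adjusted p = 0.0156), a call lost without the intensity trend (0.0593) or without sgNT replicate 3 (0.0654). *Socs3*, which blocks interleukin-6 receptors, rose in MC38 (0.54 ± 0.075, adjusted p = 0.000538). Its rise in Hepa1-6 (0.19 ± 0.061, limma adjusted p = 0.0236) was lost under 5 of 15 alternatives, among them without sgB2m replicate 3 (0.0624) or sgNT replicate 1 (0.105) or 2 (0.0685). *Cish*, an inhibitor of STAT5 signalling, rose in AKR (0.74 ± 0.15) and Hepa1-6 (1.04 ± 0.16), with limma adjusted p of 0.00254 and 8.80e-05. Of the list, 2 of 15 tested genes rose and 6 fell in MC38, 4 of 14 rose and 3 fell in LLC1, 4 of 15 rose and 4 fell in AKR, and 3 of 15 rose and 3 fell in Hepa1-6. Altogether 8 of 15 changed in MC38 (31.8% of all genes tested), and the other lines lay nearer the share of all genes, at 7 of 14 in LLC1 (42.4% of all), 8 of 15 in AKR (42.9%) and 6 of 15 in Hepa1-6 (37.8%). Its median change was −0.42 for MC38, −0.0043 for LLC1, −0.023 for AKR and 0.051 for Hepa1-6. The MC38 rises numbered 1 without sgB2m replicate 3 or sgNT replicate 2 or 3, the AKR rises 2 without sgB2m replicate 3, and the Hepa1-6 falls 1 without sgB2m replicate 2 or sgNT replicate 1 or 3.

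Type I interferon targets, the genes that STAT2 and IRF9 switch on, made the longest list. In MC38, 18 of 30 tested genes rose and 1 fell (median 0.56), where 15.9% of all genes rose. *Rtp4* had 122 ± 30.2 normalised reads in sgB2m cells and 30.2 ± 9.96 in sgNT cells (limma adjusted p = 0.000782), and *Zbp1*, a sensor of nucleic acids, had 52.9 ± 6.52 normalised reads in sgB2m cells and 10.2 ± 7.67 in sgNT cells (2.50 ± 0.51, adjusted p = 0.00448). In LLC1, 10 of 22 rose and 2 fell (median 0.39, with 20.7% of all genes rising), led among genes with over 100 normalised reads by *Ifit3* (2.11 ± 0.24, limma adjusted p = 5.38e-06). In AKR, 11 of 28 rose and 2 fell (median 0.20, with 21% of all genes rising), with *Oas3* (0.97 ± 0.077), *Dhx58* (0.90 ± 0.089) and *Oasl1* (0.78 ± 0.082) highest and *Ifi44* (−1.10 ± 0.13) lowest (limma adjusted p at most 6.01e-05). In Hepa1-6, 4 of 30 rose and 10 fell (median −0.14, with 18.6% of all genes rising and 19.2% falling), and the lowest were *Oas1a* (−0.74 ± 0.054), an antiviral synthetase, *Isg15* (−0.57 ± 0.092), a ubiquitin-like modifier, and *Parp9* (−0.42 ± 0.096), with limma adjusted p of 3.08e-08, 0.000161 and 0.00245. Of these genes, *Oas1a* was also the 1 that fell in MC38 (−0.71 ± 0.17, limma adjusted p = 0.0113), and *Ifi44* rose there, with 37.7 ± 17.2 normalised reads in sgB2m cells and 3.22 ± 3.41 in sgNT cells (adjusted p = 0.00701). *Ifi44* passed the filter in MC38 only through its sgB2m libraries, so a rise was the only call open to it. It is counted among the 18, but no conclusion is drawn from its call. The sgNT mean of *Zbp1* in MC38 also lay near the floor of the filter. In LLC1 *Ifit3b* passed the filter only through its sgB2m libraries, so a rise was the only call open to it there. It is counted among the 10 and in the LLC1 median, but no conclusion is drawn from its call. Reads of *Ifit3* and *Ifit3b*, close copies, may be split between them. The counts of falls in LLC1 and AKR were 1 in place of 2 without any of 4 libraries in each line (LLC1 sgB2m replicate 2 and sgNT replicates 1, 2 and 3; AKR sgB2m replicates 2 and 3 and sgNT replicates 1 and 3), and the rises in Hepa1-6 numbered 2 without sgNT replicate 1.

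Interferon-gamma targets rose in MC38, where 10 of 14 tested genes rose and 0 fell (median 1.12, with 15.9% of all genes rising). *Irgm2*, a GTPase of cell-autonomous defence, had 433 ± 23.6 normalised reads in sgB2m cells and 135 ± 14.7 in sgNT cells (1.67 ± 0.13, limma adjusted p = 1.34e-05). In AKR 8 of 13 rose and 1 fell (median 0.53, with 21% of all genes rising), 5 rising without sgB2m replicate 2, and 0 fell without sgB2m replicate 2 or 3 or sgNT replicate 2 or 3. In LLC1, 1 of 11 rose and 2 fell (median −0.14), where 20.7% of all genes rose and 21.8% fell. The genes that fell were *Gbp4* (−2.17 ± 0.41) and *Cd274* (−0.60 ± 0.13), the gene of PD-L1 (limma adjusted p = 0.000613 and 0.00162). *Gbp4* was weak in LLC1, with 13.9 ± 7.61 normalised reads in sgB2m cells, near the floor of the filter, and 60.7 ± 14.8 in sgNT cells. *Cd274* rose in Hepa1-6 (1.17 ± 0.13, limma adjusted p = 4.16e-06) and *Gbp4* in AKR (0.80 ± 0.19, 0.00562). *Gbp4* also rose in Hepa1-6 (1.55 ± 0.53, limma adjusted p = 0.0313). That call was lost under 5 of 14 alternatives, among them without sgB2m replicate 2 (0.0577) or 3 (0.107) or sgNT replicate 3 (0.116). Hepa1-6 was mixed, with 6 of 15 rising and 3 falling (median 0.25, with 18.6% of all genes rising and 19.2% falling): the chemokine *Cxcl10* rose (1.22 ± 0.11, limma adjusted p = 2.04e-07) and *Irgm1* fell (−0.81 ± 0.048, adjusted p = 2.63e-09). *Irgm1* rose in MC38 (0.37 ± 0.080) and AKR (0.36 ± 0.069), with limma adjusted p of 0.00663 and 0.00157. The GBP and TGTP genes have near copies in the genome, so their separate counts are uncertain.

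**Figure D4:**
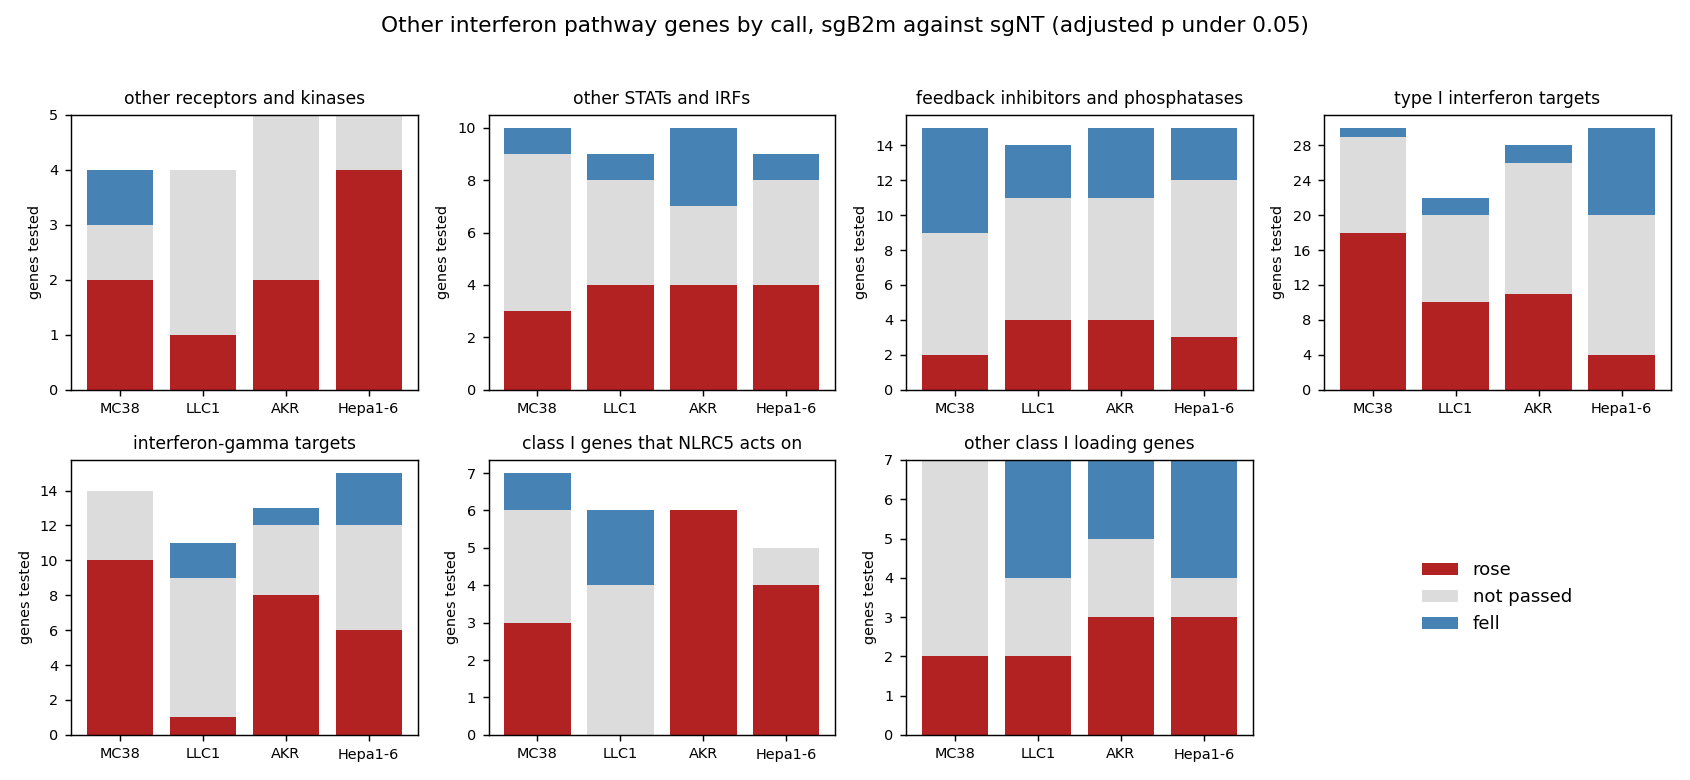
Number of tested genes (y axis, from 0) that rose (red), did not pass (grey) or fell (blue) in sgB2m against sgNT cells of each line (x axis), for 7 lists of other interferon pathway genes, by limma at an adjusted p under 0.05. Type I interferon targets rose in 18 of 30 cases in MC38 and fell in 10 of 30 in Hepa1-6.

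Class I genes on which NLRC5 is known to act were set beside *Nlrc5* itself. In AKR, where *Nlrc5* rose, all 6 tested genes rose (median 0.51, with 21% of all genes rising), led by *Psmb9* (0.92 ± 0.20), *Tap1* (0.61 ± 0.073) and *H2-T23* (0.51 ± 0.065), with limma adjusted p of 0.00408, 6.48e-05 and 0.000107. *Tap1* encodes a chain of the peptide transporter and *Psmb9* an immunoproteasome subunit. In Hepa1-6, 4 of 5 rose and 0 fell (median 0.39, with 18.6% of all genes rising), with *H2-D1*, a class I heavy chain, at 11787 ± 186 normalised reads in sgB2m cells and 8666 ± 137 in sgNT cells (0.44 ± 0.027, limma adjusted p = 3.76e-09). That count of 4 was 2 without sgB2m replicate 1. *H2-K1* was listed at 0 in all 3 Hepa1-6 sgNT libraries and had 7 reads over the 3 sgB2m libraries. In LLC1, where *Nlrc5* fell, 0 of 6 rose and 2 fell (median −0.15, with 21.8% of all genes falling): *H2-D1* (−0.39 ± 0.032, limma adjusted p = 2.69e-07) and *H2-T23* (−0.30 ± 0.091, adjusted p = 0.0143), the second call being lost without sgB2m replicate 1 (0.055) or 2 (0.0558). In MC38, where *Nlrc5* rose, 3 of 7 rose and 1 fell (median 0.23, with 15.9% of all genes rising and 15.8% falling). There *H2-D1* rose (0.37 ± 0.054, limma adjusted p = 0.000688) and *H2-T23* fell (−0.74 ± 0.13, adjusted p = 0.00201). A link between the change of *Nlrc5* and those of these genes was not tested. Class I heavy chain genes are alike in sequence, and reads can be split between them or lost.

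The 7 other genes of class I peptide loading moved both ways. *Tapbp*, the gene of tapasin, rose in all 4 lines, at 0.42 ± 0.046 in Hepa1-6 and 0.30 ± 0.040 in AKR (limma adjusted p = 3.50e-06 and 0.000128), and at 0.17 ± 0.055 in MC38 and 0.14 ± 0.046 in LLC1 (0.0447 and 0.0229). The MC38 call was lost under 9 of 15 alternatives, among them without sgB2m replicate 1 (0.0898) or 3 (0.178) or sgNT replicate 1 (0.062) or 2 (0.094). The LLC1 call was lost under 5 of 15, among them without sgB2m replicate 3 (0.0836) or sgNT replicate 1 (0.0538) or 2 (0.0681). *Erap1*, a peptide-trimming protease, rose in MC38 (0.73 ± 0.072) and fell in AKR (−0.44 ± 0.063) and Hepa1-6 (−0.28 ± 0.059), by limma at an adjusted p of at most 0.00142. Of the 7, 2 rose and 0 fell in MC38, 2 rose and 3 fell in LLC1, 3 rose and 2 fell in AKR, and 3 rose and 3 fell in Hepa1-6 (medians 0.11 for MC38, −0.13 for LLC1, 0.18 for AKR and −0.15 for Hepa1-6). Altogether 2 of 7 changed in MC38 (31.8% of all genes tested), 5 of 7 in LLC1 (42.4% of all), 5 of 7 in AKR (42.9%) and 6 of 7 in Hepa1-6 (37.8%), so the MC38 share was near that of all genes. The LLC1 falls include *Psmb8*, with 2.97 ± 5.15 normalised reads in sgB2m cells and 21.4 ± 0.86 in sgNT cells. It passed the filter there only through its sgNT libraries, so a fall was the only call open to it. No conclusion is drawn from that call. The counts in MC38, LLC1 and AKR rested on single libraries: the MC38 rises numbered 1 without sgB2m replicate 1 or 3 or sgNT replicate 1 or 2, and 5 without sgNT replicate 3. The LLC1 rises numbered 1 without any one sgB2m library or sgNT replicate 3 and 0 without sgNT replicate 1 or 2, and the LLC1 falls numbered 1 without sgNT replicate 1 or 3. In both of those cases *Psmb8* no longer passed the filter and was not tested, and the *Tap2* call was lost. The AKR rises numbered 1 without sgB2m replicate 1 or 3 or sgNT replicate 1 or 2.

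**Figure D5:**
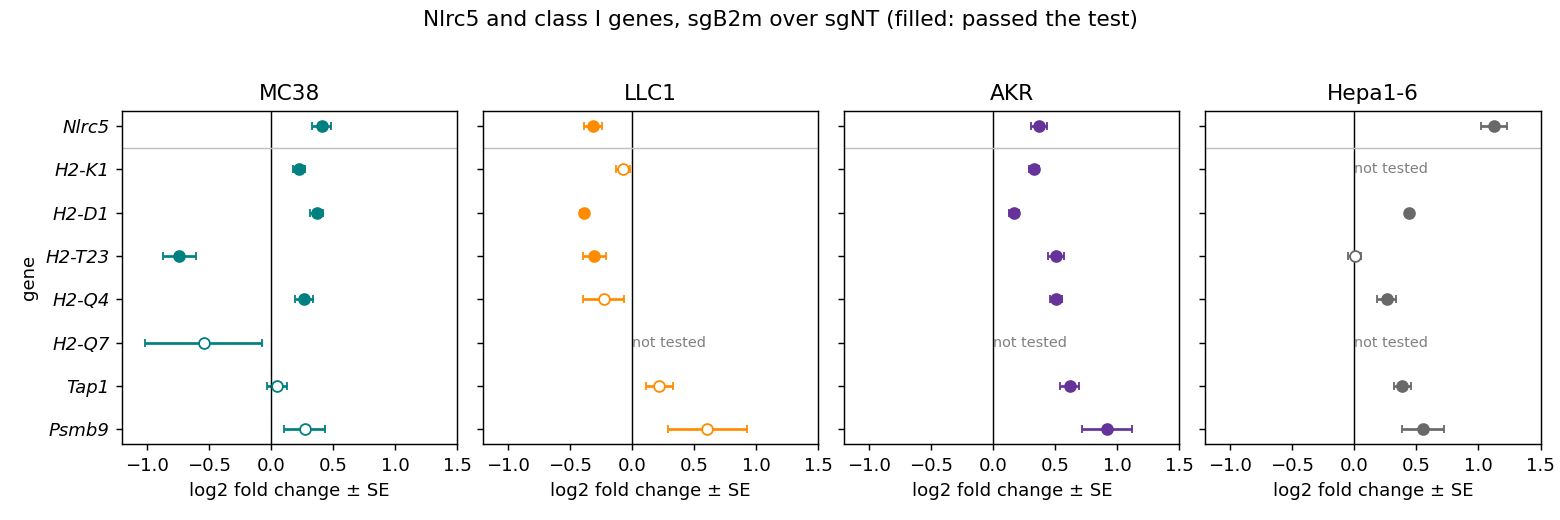
Log2 fold change ± SE of sgB2m over sgNT (x axis) of *Nlrc5* and of 7 class I genes that NLRC5 acts on (rows), in 1 panel per line, with filled points for genes that passed limma's test. In AKR all 6 tested class I genes lay above 0, as *Nlrc5* did. In LLC1, where *Nlrc5* lay below 0, *H2-D1* and *H2-T23* passed below 0, while *Tap1* and *Psmb9* lay above 0 and did not pass. In MC38 *H2-T23* lay below 0 and *Nlrc5* above it.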

How the data were processed

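RNA of 24 libraries, 3 for each of 8 groups, was sequenced as strand-specific paired-end libraries, per the labels' protocols. The authors deposited log2 normalised counts, in 1 table per line, and the submitters' processing notes name STAR, DESeq2 and FastQC 0.11.5, with the build mm10. The gene counter, its annotation and its strand setting are not given in the sources used here. On the linear scale, with the pseudocount of 1 taken off, the deposited values were whole multiples of 1 step per library, within 0.05 reads for 100% of values, so reads were recovered and summed to 25 to 49.7 M per library. Size factors were set within a line, so levels were set side by side between lines only in RPM, reads scaled to the library's total. Adding a constant before the logarithm draws the changes of weak genes toward 0.

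Tests were run in R 4.3.3 with limma 3.58.1, and tables were made in Python 3.11.15. A gene was tested in a line if 3 or more of the 6 libraries reached a log2 value of 3.5. The fit had an intensity trend and no covariates, with Benjamini-Hochberg adjustment. Changes were compared between lines in 1 fit of the 24 libraries over 12674 genes, by an F test and by 6 pairwise contrasts adjusted over 76044 tests. Tests were two-sided, and the code was checked on simulated data. Deviations of same-numbered libraries were at most weakly correlated, with r of −0.028 to 0.051, so no block was fitted in the main test. In LLC1 the r was still highest for the library's own number each time (0.023, 0.051 and 0.028, against at most 0.0063 for other numbers). The 9 genes and the lists of other interferon pathway genes were chosen with earlier results of these data known. Some genes of these lists are counted in them but are not reported by name here. From each list and line, up to 3 called genes with the highest and up to 3 with the lowest change could be named; genes given in other lines beside these were chosen after their values were seen. Sequences are those of RefSeq, GRCm38.p6, in which 8 of the 9 genes matched, and overlaps are those of GENCODE M21. Alternatives were no filter or a log2 floor of 6, a pseudocount of 8, library totals in place of size factors with 2 constants (the one with a constant of 1 chosen after seeing the data), quantile normalisation, no trend, voom on recovered reads, the replicate block and leaving out each library.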

Additional observations from a re-analysis of the deposited data

Results flagged for a closer look

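Each of the 9 genes was marked because the change in sgB2m cells differed between the 4 lines in limma's F test of the interaction, adjusted over 12674 genes. The adjusted p was 0.000909 for *Ifnar1*, 0.000233 for *Ifngr1*, 4.56e-09 for *Jak1*, 5.76e-07 for *Jak2*, 6.35e-09 for *Stat2*, 4.24e-07 for *Irf1*, 0.000638 for *Irf7*, 0.0122 for *Irf9* and 1.18e-08 for *Nlrc5*. The same test passed for 69.8% of all genes, so a difference between lines does not set these genes apart. *Jak1* split the lines evenly, with log2 changes of 0.21 in LLC1 and 0.18 in MC38 against −0.25 in AKR and −0.32 in Hepa1-6. *Stat2* and *Nlrc5* had their largest rises in different lines, 1.25 in LLC1 for *Stat2* and 1.13 in Hepa1-6 for *Nlrc5*, and each fell in the line where the other rose most. The test also passed for the edited gene *B2m* (adjusted p = 1.13e-05), which fell in all 4 lines.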

How the results depend on the processing

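The number of the 9 genes called, 8 in Hepa1-6 and 6 in each other line, stayed within 1.5 times under every alternative run. With 1 library left out it was 4 to 6 in MC38, 5 to 6 in both LLC1 and AKR, and 7 to 8 in Hepa1-6, while 8 to 9 genes differed between lines and 30 to 36 of the comparisons between pairs of lines passed. With the replicate block it was 5 in MC38, 6 in LLC1, 5 in AKR and 8 for Hepa1-6, and 9 genes and 33 comparisons of pairs passed between lines. With the log2 floor of 6, *Irf7* was not tested in LLC1. Of the 36 values, 3 changed sign, and none of these had passed. *Ifngr1* in LLC1 was 0.0121 or 0.0124 with library totals and ranged from −0.0471 to 0.0199 with 1 library left out. *Ifngr1* in AKR was 0.0218 or 0.0225 with library totals and ranged from −0.116 to 0.0496 with 1 library left out, and *Irf9* in Hepa1-6 ranged from −0.0309 to 0.0969. The cause was not tested. The order of control levels over the 4 lines was the same for 8 of 9 genes with size factors set over all 24 libraries, for 5 with the deposited normalised counts, whose scales differ between lines by construction, and for 4 in the sgB2m libraries. Over all genes, voom on recovered reads called 5293 genes in MC38 (5251 in the main test), 6494 in LLC1 (6503), 6830 in AKR (6815) and 5640 for Hepa1-6 (5637). Depth limits *Irf7* most, with 78 reads in LLC1 sgNT cells.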
